A study of Rattus norvegicus with 12 samples.

Results

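Of the 12 arrays of this series, 6 are described here: the 3 arrays of cultures treated with di(2-ethylhexyl) phthalate (DEHP) at 10 µg/ml and the 3 arrays of cultures given vehicle. They were chosen by their titles, and not by any measured value. The series measured gene expression on Affymetrix rat gene arrays in primary cultures of heart muscle cells in 4 groups, vehicle and 3 doses, with 3 arrays each. The remaining 6 arrays, at 1 and 50 µg/ml, enter only where 10 µg/ml is set against them and in the estimate of the spread. Cells were isolated with enzymes from hearts of Sprague-Dawley rat pups 2 days old, plated on coated coverslips and kept for 3 days before a treatment of 3 days. The DEHP cultures received DEHP at 10 µg/ml in 0.1% dimethyl sulphoxide (DMSO), and the vehicle cultures received 0.1% DMSO alone, so both groups carried the solvent. All cells came from 1 litter. The submitters call the samples of a group biological replicates, and p-values here measure the spread between cultures of that litter.

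DEHP is a plasticiser of polyvinyl chloride, used in blood bags and medical tubing, from which it can leach into fluids. Esterases convert it to its monoester, which activates peroxisome proliferator-activated receptors (PPARs), nuclear receptors that switch on genes of fatty acid handling. Neonatal rat heart cultures are rich in cardiomyocytes that beat on their own, and usually also hold some fibroblasts, endothelial cells and macrophages.

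Every value is the log2 of a deposited ratio. That ratio sets an array against the midpoint of all 12 arrays for its probe set, so a gene at 0 lay at its median and a step of 1 is a doubling. The ratios carry no level, so whether the defining markers of cardiomyocytes or of any other cell type were present could not be checked, and genes are not ranked by abundance. Of 27342 probe sets, 15097 carried exactly 1 gene symbol and gave 14324 genes, with the mean taken over the probe sets of a gene. Array medians of the ratio lay between 0.994 and 1.01. Replicate 2 at 10 µg/ml stood apart from its group, as set out next, and results that rest on it are given with and without it.

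The 3 arrays at 10 µg/ml did not lie equally close together. The SD over genes of the log2 deviation from the group mean was 0.0685, 0.119 and 0.0929 in replicates 1, 2 and 3 at 10 µg/ml, against 0.0604, 0.0591 and 0.0597 in the vehicle arrays. Replicate 2 had the widest deviation of the 12 arrays. Its difference from the mean of replicates 1 and 3 had an SD over genes of 0.178, whereas replicates 1 and 3 differed from each other with an SD of 0.112. The deviations of replicate 2 at 10 µg/ml and replicate 2 at 50 µg/ml had a correlation over genes of 0.43. That was the highest between arrays of the same replicate number, and its cause was not tested.

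**Figure D1:**
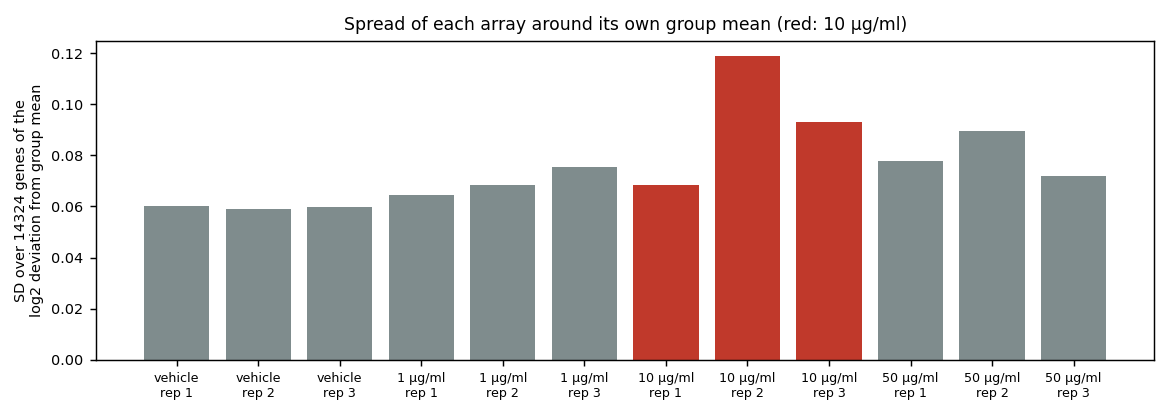
Bars give, for each of the 12 arrays, the SD over 14324 genes of the log2 deviation from its own group mean, with doses from vehicle to 50 µg/ml and the 10 µg/ml arrays in red. Replicate 2 at 10 µg/ml has the tallest bar, at 0.119, and the vehicle bars lie near 0.06.

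Genes that were furthest above the other 2 arrays of the dose in replicate 2 were of several kinds. Blvra, which encodes the biliverdin reductase of heme breakdown, stood 0.80 above the mean of replicates 1 and 3, at 0.18, 0.73 and -0.32 in the 10 µg/ml arrays, against -0.19, 0.053 and -0.055 in the vehicle arrays. Igf2, a fetal growth factor, stood 0.66 above it, and Tyrobp, an adaptor of macrophage surface receptors, stood 0.58 above it. Bst2, an interferon-induced membrane protein, Gngt2, a G protein subunit, Ndufb7, a subunit of respiratory complex I, Chac1, an enzyme of glutathione breakdown, and Tspo, a protein of the outer mitochondrial membrane, made up the 8 highest. Their deviations were 0.61 for Bst2, 0.63 for Gngt2, 0.60 for Ndufb7, 0.59 for Chac1 and 0.58 for Tspo.

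At the other end, replicate 2 was lowest for Rad1, a subunit of a clamp complex that senses DNA damage. Rad1 stood at -0.15, -0.90 and 0.19 in the 10 µg/ml arrays, against 0.028, -0.02 and 0.02 in the vehicle arrays, a deviation of -0.92. Coq10b, a mitochondrial coenzyme Q binding protein, deviated by -0.86, Ube2v2, a ubiquitin-conjugating enzyme variant, by -0.79, and Hspa13, an Hsp70 family member, by -0.77. Aspn, the matrix proteoglycan asporin, deviated by -0.76, the kinase gene Yes1 by -0.74, Pan3, of poly(A) tail shortening, by -0.73, and Mob4 by -0.72. Without replicate 2 the difference from vehicle turned sign for Blvra, Igf2, Gngt2, Bst2, Chac1, Tyrobp, Tspo, Rad1, Coq10b and Pan3, none of which passed the test in either fit. With all arrays the difference exceeded its standard error in Blvra, Tspo, Rad1 and Coq10b of these. All were picked for the distance of replicate 2 from the other arrays of its dose, so such turns follow in part from the pick.

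The comparison of 10 µg/ml with vehicle asks which genes differed after 3 days at this dose. No gene passed an adjusted p of 0.05 in limma's moderated test, which pools the spread over genes and adjusts by Benjamini-Hochberg over all 14324, with all arrays (0 genes, 0% of those tested) or without replicate 2 (0 genes, 0%). The smallest adjusted p was 0.201 (Myh3) with all arrays and 0.064 (Podxl) without replicate 2. At an unadjusted p under 0.05 there were 899 genes (6.28%), of which 387 (2.7%) were higher and 512 (3.57%) lower at 10 µg/ml. Without replicate 2 there were 655 genes (4.57%), 255 (1.78%) higher and 400 (2.79%) lower. Over the 27342 probe sets, 0 passed in either fit, with 1505 and 1266 at an unadjusted p under 0.05. Other settings of limma gave from 0 to 90 genes. They were 90 (0.628%) with array weights, which count less those arrays that deviate from their group, 34 higher (0.237%) and 56 lower (0.391%), and 39 (0.272%; 18 higher, 21 lower) after a further quantile normalization, which gives every array the same distribution. The sets shared 27 genes, which is 30% of the first and 69.2% of the second. With 3 arrays on each side the smallest p of an exact permutation test is 0.1, so no test here rests on one.

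**Figure D2:**
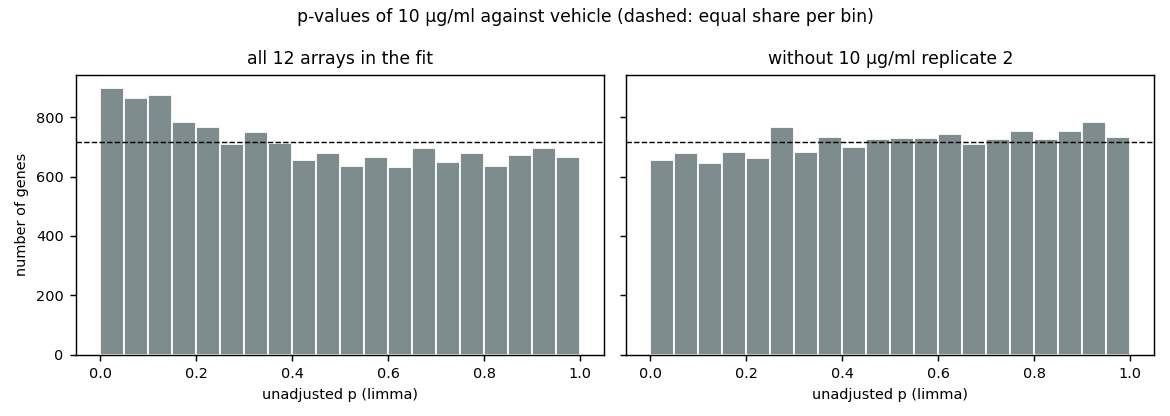
Number of genes in each bin of unadjusted p from limma for 10 µg/ml against vehicle, with all 12 arrays (left) and without replicate 2 at 10 µg/ml (right). The dashed line is an equal share per bin, and the lowest bin holds 899 genes on the left and 655 on the right.

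Most genes had a narrow interval. The median standard error of a gene's log2 difference was 0.065, and the median 95% interval reached 0.14 to either side. For 12105 genes (84.5%) the whole interval lay within 0.3 of 0 on the log2 scale, and for 14140 genes (98.7%) within 0.5. Without replicate 2 these were 12774 genes (89.2%) and 14211 genes (99.2%). Dim probe sets could not be removed, so these counts may include genes too weak to measure. The difference itself was over 0.5 in size for 5 genes, or 8 without replicate 2.

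Among genes lower at 10 µg/ml, Myh3 had the smallest p and the largest difference in size of all genes. It encodes the embryonic myosin heavy chain of skeletal muscle. Myh3 stood at -0.43, -0.34 and -0.27 in the 10 µg/ml arrays, against 0.27, 0.79 and 0.56 in the vehicle arrays. The groups did not overlap, and the log2 difference was -0.89 ± 0.13 (SE; 95% interval -1.17 to -0.61; limma unadjusted p = 1.4e-05, adjusted p = 0.201). Without replicate 2 it was -0.89 (limma adjusted p = 0.189). Array weights brought Myh3 to a limma adjusted p of 0.00949 at a difference of -0.94. The further quantile normalization brought it to 0.0358 at a difference of -1.50.

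Scg2, which encodes secretogranin II, a granule protein of neuroendocrine cells and neurons, stood at -0.11, -0.43 and -0.19 in the 10 µg/ml arrays, against 0.11, 0.39 and 0.50 in the vehicle arrays. All 3 arrays at 10 µg/ml lay below all vehicle arrays, with a difference of -0.58 ± 0.10 (SE; limma adjusted p = 0.252) and -0.48 without replicate 2. Sla, an adaptor that dampens signalling of immune receptors, stood at -0.016, 0.016 and 0.054 in the 10 µg/ml arrays, against 0.30, 0.40 and 0.40 in the vehicle arrays, a difference of -0.35 ± 0.058 (SE; limma adjusted p = 0.213). Cpm, the membrane-bound carboxypeptidase M, stood at -0.21, -0.23 and -0.14 in the 10 µg/ml arrays, against 0.047, 0.12 and 0.12 in the vehicle arrays, a difference of -0.29 ± 0.048 (SE; limma adjusted p = 0.213). Neither gene's arrays overlapped between the groups, and the differences without replicate 2 were -0.34 for Sla and -0.27 for Cpm.

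Fndc1, a fibronectin type III domain protein, stood at -0.16, -0.25 and -0.11 in the 10 µg/ml arrays, against 0.11, 0.12 and 0.19 in the vehicle arrays, a difference of -0.32 ± 0.059 (SE; limma adjusted p = 0.328). Cx3cr1, the fractalkine receptor of macrophages, stood at -0.24, -0.27 and -0.11 in the 10 µg/ml arrays, against 0.23, 0.37 and 0.11 in the vehicle arrays, a difference of -0.44 ± 0.09 (SE; limma adjusted p = 0.417). The groups did not overlap for either. Over all genes, groups did not overlap for 717 genes (5.01%) higher and 891 genes (6.22%) lower at 10 µg/ml. The leading genes of either direction were picked for a small p on the same arrays, so their lack of overlap is no separate evidence.

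Among genes higher at 10 µg/ml, the smallest p belonged to a calcium channel subunit and a myosin light chain. Cacna2d2, an auxiliary subunit of voltage-gated calcium channels, stood at 0.25, 0.24 and 0.038 in the 10 µg/ml arrays, against -0.13, -0.20 and -0.37 in the vehicle arrays. Its difference was 0.41 ± 0.069 (SE; limma adjusted p = 0.213), and 0.38 without replicate 2. Myl2, the regulatory myosin light chain of ventricular muscle, stood at 0.10, 0.12 and 0.19 in the 10 µg/ml arrays, against -0.10, -0.34 and -0.22 in the vehicle arrays, a difference of 0.36 ± 0.063 (SE; limma adjusted p = 0.252). Both had all 3 arrays at 10 µg/ml above all vehicle arrays.

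Fabp3, the fatty acid binding protein of heart muscle and a PPAR target, stood at 0.031, 0.16 and 0.13 in the 10 µg/ml arrays, against -0.065, -0.25 and -0.23 in the vehicle arrays, a difference of 0.29 ± 0.06 (SE; limma adjusted p = 0.417). Dusp8, a phosphatase that inactivates stress-activated MAP kinases, stood at 0.13, 0.12 and 0.01 in the 10 µg/ml arrays, against -0.14, -0.20 and -0.15 in the vehicle arrays, a difference of 0.25 ± 0.05 (SE; limma adjusted p = 0.417). Pxylp1, a xylose phosphatase of proteoglycan synthesis, differed by 0.20 ± 0.042 and Enah, a regulator of actin filament growth, by 0.25 ± 0.055 (SE; limma adjusted p = 0.424 and 0.424). In none of the 4 did the groups overlap, and without replicate 2 the differences were 0.26 for Fabp3, 0.24 for Dusp8, 0.19 for Pxylp1 and 0.26 for Enah.

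**Figure D3:**
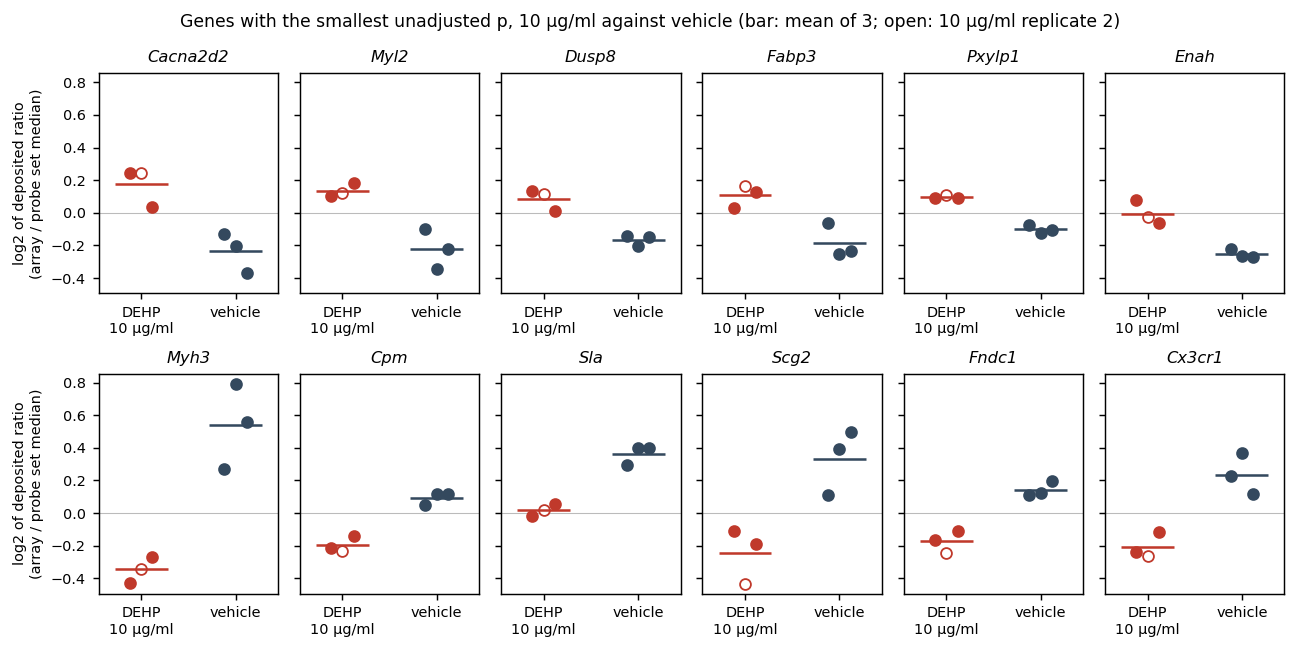
Points give the log2 of the deposited ratio on each array, with 10 µg/ml left of vehicle, for the 6 genes with the smallest unadjusted p in each direction; bars are means of 3 and the open point is replicate 2 at 10 µg/ml. In all 12 genes the groups do not overlap, beside 5.01% of all genes higher and 6.22% lower. The genes were picked by p on these same arrays, so this is no separate evidence. Myh3 has the widest gap, -0.43 to -0.27 at 10 µg/ml and 0.27 to 0.79 with vehicle.

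Leaving out replicate 2 brought other genes to the smallest p. Podxl, the cell surface sialomucin podocalyxin, stood at -0.30, -0.017 and -0.43 in the 10 µg/ml arrays, against 0.11, 0.14 and 0.017 in the vehicle arrays. Replicate 2 lay close to the vehicle arrays, and the difference was -0.34 ± 0.083 with it (SE; limma adjusted p = 0.427) and -0.45 without it (limma adjusted p = 0.064). Il1b, the inflammatory cytokine interleukin-1 beta, stood at -0.096, 0.09 and -0.25 in the 10 µg/ml arrays, against 0.13, 0.18 and 0.24 in the vehicle arrays, a difference of -0.27 with replicate 2 and -0.36 without it (limma adjusted p = 0.189). Bcl2a1, an inhibitor of cell death found in leukocytes, stood at 0.0076, 0.42 and 0.0091 in the 10 µg/ml arrays, against 0.29, 0.37 and 0.27 in the vehicle arrays, with differences of -0.16 and -0.30 (limma adjusted p = 0.189 without replicate 2). In each of the 3 genes replicate 2 lay above the other arrays of its dose.

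Xirp2, a protein of the actin anchorage at the intercalated disc, stood at 0.34, 0.051 and 0.15 in the 10 µg/ml arrays, against -0.051, -0.38 and -0.40 in the vehicle arrays. Its difference was 0.46 with replicate 2 and 0.52 without it (limma adjusted p = 0.424 and 0.557). Replicate 2 was the lowest of the dose and had the same rank for Smpx, a small muscle protein, whose differences were 0.26 and 0.33. Ldhb, a subunit of lactate dehydrogenase, differed by 0.22 and 0.27, and Ghr, the growth hormone receptor, by 0.16 and 0.26. None passed the test.

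Gene groups were described with 43 lists, of whose 1468 entries 1251 (85.2%) were measured. No member of any list passed the test over all genes, so each list is given by its members at an unadjusted p under 0.05 and by its median. The median over all 14324 genes was -0.0057, or -0.012 without replicate 2. In these bulk samples fewer cells of a type and less RNA per cell cannot be told apart.

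The sarcomere and Z-disc list, the myosin, actin, troponin and titin machinery of contraction, had the second highest median, 0.17 over 33 genes and 0.19 without replicate 2. Of these 33, 18 were higher and 0 lower at an unadjusted p under 0.05 in both fits, beside 2.7% and 1.78% of all genes higher. They included Myl2, the troponin subunits Tnnc1 (0.30, 0.24 without replicate 2) and Tnni3 (0.30, 0.25), titin (Ttn; 0.32, 0.37) and the atrial light chain Myl7 (0.41, 0.37). The median of the list, set against each gene's vehicle mean, was 0.14, 0.16 and 0.22 in the 10 µg/ml arrays, against 0.12, -0.019 and -0.076 in the vehicle arrays. Every array at 10 µg/ml lay above every vehicle array, though replicate 1 at 10 µg/ml and replicate 1 with vehicle nearly met.

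Cardiomyocyte markers, which share members with that list, had the highest median of the 43, 0.19 over 18 genes and 0.19 without replicate 2. All 18 differences were above 0, and 10 had an unadjusted p under 0.05, or 9 without replicate 2, beside 2.7% and 1.78% of all genes higher. Array by array the median was 0.14, 0.19 and 0.24 in the 10 µg/ml arrays, against 0.12, -0.027 and -0.061 in the vehicle arrays. Myh6, the alpha myosin heavy chain, differed by 0.20 ± 0.084 and Ryr2, the calcium release channel, by 0.21 ± 0.078 (SE; limma adjusted p = 0.785 and 0.756). Nppa, the atrial natriuretic peptide, differed by 0.066 ± 0.048.

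Macrophage and leukocyte markers had the lowest median, -0.16 over 30 genes and -0.17 without replicate 2. None was higher and 7 were lower at an unadjusted p under 0.05, or 12 without replicate 2, beside 3.57% and 2.79% of all genes lower. Array by array the list median was -0.23, 0.0014 and -0.12 in the 10 µg/ml arrays, against -0.038, 0.034 and 0.0077 in the vehicle arrays. Replicate 2 lay at the vehicle level and replicates 1 and 3 below all vehicle arrays. The 7 included Cx3cr1, the lipopolysaccharide co-receptor Cd14 (-0.45 ± 0.093, SE), the actin-bundling protein Lcp1 (-0.29 ± 0.072) and Csf1r, the receptor of macrophage colony-stimulating factor (-0.28 ± 0.094). Csf1r stood at -0.092, 0.14 and -0.015 in the 10 µg/ml arrays, against 0.27, 0.40 and 0.22 in the vehicle arrays, without overlap, and at a limma adjusted p of 0.732. Cd74, the invariant chain of class II molecules, stood at -0.085, 0.28 and -0.049 in the 10 µg/ml arrays, against 0.19, 0.29 and 0.26 in the vehicle arrays, where replicate 2 lay among the vehicle arrays; its difference was -0.20 with and -0.31 without that array. Lyz2, lysozyme, stood at -0.28, -0.034 and 0.28 in the 10 µg/ml arrays, against 0.26, 0.034 and 0.16 in the vehicle arrays, where the groups overlapped.

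The macrophage and the cardiomyocyte markers therefore lay on opposite sides of the all-gene median, and what part either has in the other's values was not tested.

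Cell cycle genes had the next lowest median, -0.13 over 51 genes and -0.092 without replicate 2, with 0 higher and 9 lower at an unadjusted p under 0.05 in both fits, beside 3.57% and 2.79% of all genes lower. Array by array it was -0.12, -0.15 and -0.046 in the 10 µg/ml arrays, against 0.015, 0.023 and -0.037 in the vehicle arrays, so each array at 10 µg/ml lay below each vehicle array. Mcm5, a subunit of the replicative helicase, stood at -0.14, -0.059 and -0.06 in the 10 µg/ml arrays, against 0.28, 0.31 and 0.13 in the vehicle arrays, a difference of -0.32 ± 0.08 (SE; limma adjusted p = 0.427). Aurka, the mitotic kinase Aurora A, stood at -0.083, -0.14 and -0.059 in the 10 µg/ml arrays, against 0.15, 0.18 and 0.11 in the vehicle arrays, a difference of -0.24 ± 0.06 (SE; limma adjusted p = 0.427).

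Oxidative phosphorylation had a median of 0.097 over 66 genes and 0.065 without replicate 2, with 17 higher and 0 lower at an unadjusted p under 0.05, or 7 and 0 without it, beside 2.7% and 1.78% of all genes higher. Array by array it was 0.047, 0.14 and 0.073 in the 10 µg/ml arrays, against 0.052, -0.016 and -0.029 in the vehicle arrays, with replicate 2 the highest of its dose. The leading gene was Ndufa3, of respiratory complex I, at 0.078, 0.16 and 0.13 in the 10 µg/ml arrays, against -0.14, -0.35 and -0.17 in the vehicle arrays, a difference of 0.34 ± 0.08 (SE; limma adjusted p = 0.424) and 0.33 without replicate 2. Cytosolic ribosomal proteins had a median of 0.073 over 68 genes and 0.036 without replicate 2, with 7 and 3 members higher at an unadjusted p under 0.05 and 0 lower, beside the same shares of all genes.

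PPAR target genes had a median of 0.023 over 34 genes, or 0.052 without replicate 2, with 3 higher and 0 lower at an unadjusted p under 0.05, or 4 and 0, beside 2.7% and 1.78% of all genes higher. Those with all arrays were Fabp3, Acadl, a mitochondrial acyl-CoA dehydrogenase (0.31 ± 0.075, SE), and Plin1, a coat protein of lipid droplets (0.14 ± 0.047). Other targets had intervals that spanned 0: Pdk4, a kinase that restrains glucose oxidation, differed by 0.15 ± 0.12 (95% interval -0.11 to 0.41), Cpt1a, of fatty acid import into mitochondria, by 0.035 ± 0.06 (-0.095 to 0.16), and Angptl4, an inhibitor of lipoprotein lipase, by -0.074 ± 0.095 (-0.28 to 0.13). The receptors differed by -0.053 ± 0.098 for Ppara, -0.016 ± 0.051 for Ppard and -0.0043 ± 0.076 for Pparg. The list of peroxisomal lipid oxidation and peroxisome biogenesis had 0 of 28 members at an unadjusted p under 0.05 in both fits, beside 6.28% and 4.57% of all genes, with a median of -0.024.

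The inflammatory response list had a median of -0.059 over 45 genes and -0.066 without replicate 2, with 0 higher and 6 lower at an unadjusted p under 0.05, or 1 and 5, beside 3.57% and 2.79% of all genes lower in the 2 fits. Its lower members included Il1b and the chemokines Ccl2 (-0.25 ± 0.066, SE) and Cxcl3 (-0.21 ± 0.067). Array by array the list median was -0.031, -0.061 and -0.066 in the 10 µg/ml arrays, against -0.037, 0.013 and 0.012 in the vehicle arrays, and what part macrophage markers have in these values was not tested. Endothelial markers had a median of -0.033 over 14 genes and -0.091 without replicate 2, the widest move for that array among the cell type lists. Array by array it was -0.049, 0.16 and -0.20 in the 10 µg/ml arrays, against 0.019, 0.034 and -0.012 in the vehicle arrays, with replicate 2 above and replicates 1 and 3 below every vehicle array. Fibroblast markers had a median of -0.029 over 23 genes, with 1 higher and 1 lower at an unadjusted p under 0.05, beside 2.7% and 3.57% of all genes. Without replicate 2 the median was -0.011, with 1 higher and 2 lower, beside 1.78% and 2.79%. The matrix genes Col1a1 (0.032 ± 0.051) and Mmp2 (-0.05 ± 0.045) had intervals that spanned 0.

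**Figure D4:**
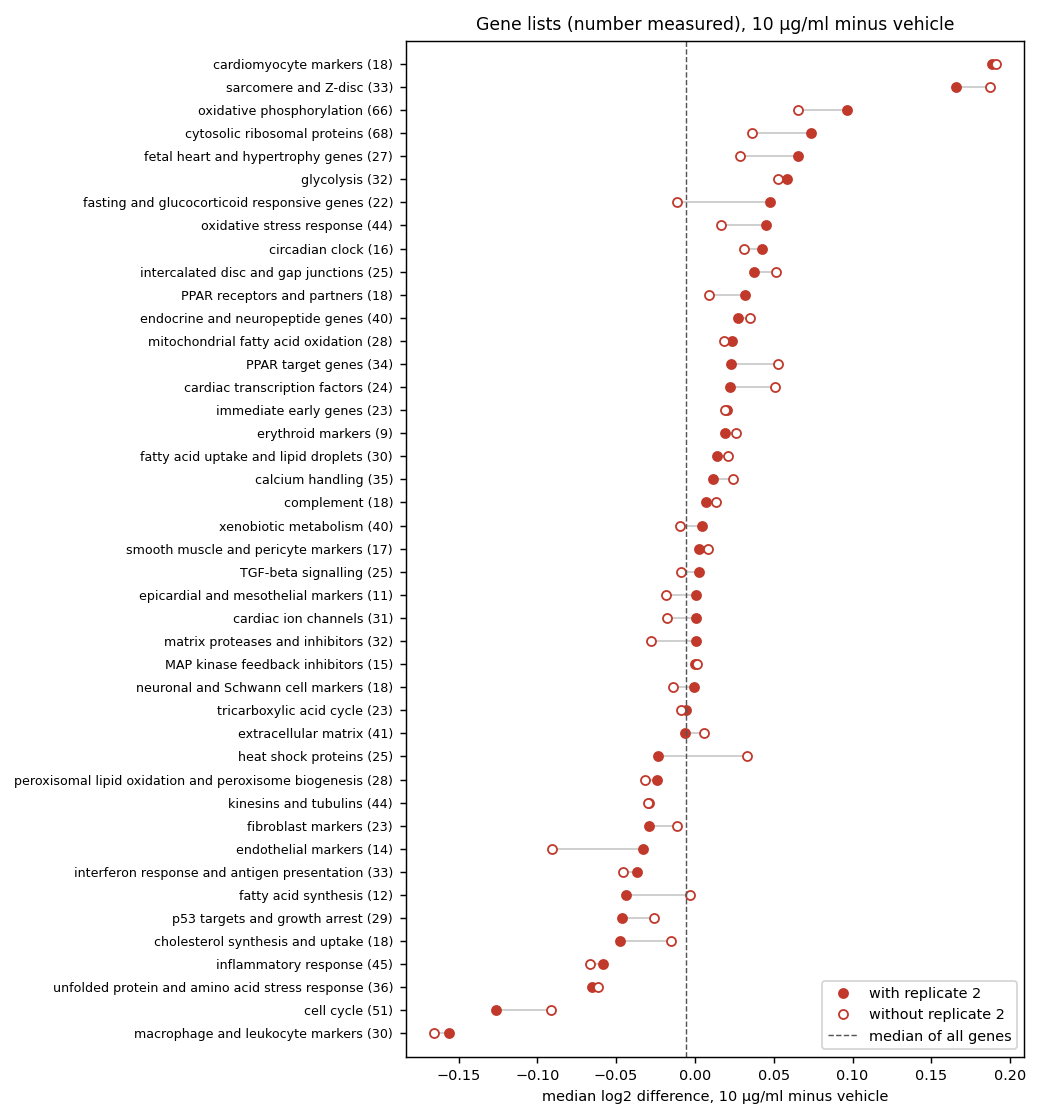
Each row is a gene list with its number of measured genes, and the x axis is the median log2 difference of 10 µg/ml minus vehicle, with replicate 2 (filled) and without it (open). Cardiomyocyte markers and the sarcomere list lie furthest right, at 0.19 and 0.17, macrophage and leukocyte markers furthest left, at -0.16, and the dashed line is the median of all genes.

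Set against the neighbouring doses, the same 3 arrays differed in many genes. Against 1 µg/ml, 2001 genes (14%) passed the test, 683 higher (4.77%) and 1318 lower (9.2%) at 10 µg/ml, and 880 (6.14%), 276 higher (1.93%) and 604 lower (4.22%), without replicate 2 at 10 µg/ml. Leaving out replicate 1 or replicate 3 at 1 µg/ml gave 944 and 820 genes. At 50 µg/ml against 10 µg/ml, 2091 genes (14.6%) passed, 1110 higher (7.75%) and 981 lower (6.85%) at 50 µg/ml, and 2531 (17.7%), 1303 higher (9.1%) and 1228 lower (8.57%), without replicate 2 at 10 µg/ml. These 2 comparisons share the arrays at 10 µg/ml. Of the 139 genes named by rule, 40 passed against 1 µg/ml, beside 14% of all genes, and 19 of them also without replicate 2. At 50 against 10 µg/ml 59 passed, beside 14.6% of all genes, and 57 of them without that array. The 139 include the 6 largest called genes of each comparison of doses. They also include genes picked for a small p against vehicle, a comparison that shares the arrays at 10 µg/ml. These counts therefore follow in part from how the genes were named.

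Several immediate early genes, transcription factors induced within minutes of a stimulus, had means at 10 µg/ml closer to vehicle than to the doses on either side, which lay above. Such a pattern, here and in the genes below, does not follow the order of the doses, and its cause was not tested. Fos, a subunit of the factor AP-1, stood at -0.57, -0.44 and -0.55 with vehicle, 1.08, 1.28 and 0.75 at 1 µg/ml, -0.45, -0.50 and -0.54 at 10 µg/ml and 1.03, 0.44 and 0.44 at 50 µg/ml. Fos was lower at 10 than at 1 µg/ml with a log2 difference of -1.54 ± 0.15 (SE; limma adjusted p = 0.000179) and higher at 50 than at 10 µg/ml by 1.14 ± 0.15 (adjusted p = 0.000241). Its difference of 10 µg/ml from vehicle was 0.022 ± 0.15 (95% interval -0.30 to 0.35). The arrays at 10 µg/ml lay among the vehicle arrays and apart from both other doses.

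Egr1, a zinc finger factor, stood at -0.65, -0.68 and -0.55 with vehicle, 0.30, 0.74 and 0.28 at 1 µg/ml, -0.46, -0.28 and -0.80 at 10 µg/ml and 0.89, 0.76 and 0.80 at 50 µg/ml. It was lower at 10 than at 1 µg/ml with a difference of -0.95 ± 0.13 (SE; limma adjusted p = 0.00143) and higher at 50 than at 10 µg/ml by 1.33 ± 0.13 (adjusted p = 2.28e-05), beside 0.11 ± 0.13 (95% interval -0.16 to 0.39) for 10 µg/ml against vehicle. Nr4a1, an orphan nuclear receptor, stood at -0.32, -0.26 and -0.31 with vehicle, 0.25, 0.51 and 0.11 at 1 µg/ml, -0.47, -0.11 and -0.57 at 10 µg/ml and 1.59, 1.51 and 1.50 at 50 µg/ml. It was lower at 10 than at 1 µg/ml with a difference of -0.67 ± 0.11 (SE; limma adjusted p = 0.00387). At 50 µg/ml it was higher than at 10 µg/ml by 1.92 ± 0.11 (limma adjusted p = 5.27e-07). Against vehicle Nr4a1 at 10 µg/ml differed by -0.086 ± 0.11, or -0.22 without replicate 2 (95% interval -0.42 to -0.026; limma unadjusted p = 0.0295, adjusted p = 0.9995). The difference of Egr1 from vehicle was 0.00061 without it. Replicate 2 was the highest of its dose for both genes. Egr2, a relative of Egr1, was lower at 10 than at 1 µg/ml with a difference of -0.82 ± 0.13 and higher at 50 than at 10 µg/ml by 0.82 ± 0.13 (SE; limma adjusted p = 0.00363 and 0.00125), beside -0.04 ± 0.13 against vehicle.

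Over the 23 immediate early genes, 1 was higher and 7 lower at 10 than at 1 µg/ml, beside 4.77% and 9.2% of all genes. Without replicate 2 these were 0 and 7, beside 1.93% and 4.22%. At 50 against 10 µg/ml, 13 were higher and 0 lower, beside 7.75% and 6.85% of all genes. Without replicate 2 at 10 µg/ml these were 16 and 0, beside 9.1% and 8.57%. The median difference of the list, 10 µg/ml from vehicle, was 0.02, with 2 higher and 0 lower at an unadjusted p under 0.05, beside 2.7% and 3.57% of all genes. Without replicate 2 the median was 0.019, with 0 higher and 1 lower, beside 1.78% and 2.79%.

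Promoters of Egr1 and Egr2 are shown because both genes had this pattern over the doses, and that of Scg2 because it was among the lowest p against vehicle and differed from both other doses. The stretches run from 250 bases before to 50 bases after the gene start in the RefSeq annotation of GRCr8, in the direction of the gene. Capitals mark a CArG box, the site of serum response factor, in Egr1 and Egr2, and the cyclic AMP response element TGACGTCA in Scg2, with both strands searched. Egr1 lies on the plus strand at chr18:26736828-26737127, Egr2 on the minus strand at chr20:21054392-21054691 and Scg2 on the minus strand at chr9:88256817-88257116.
Egr1: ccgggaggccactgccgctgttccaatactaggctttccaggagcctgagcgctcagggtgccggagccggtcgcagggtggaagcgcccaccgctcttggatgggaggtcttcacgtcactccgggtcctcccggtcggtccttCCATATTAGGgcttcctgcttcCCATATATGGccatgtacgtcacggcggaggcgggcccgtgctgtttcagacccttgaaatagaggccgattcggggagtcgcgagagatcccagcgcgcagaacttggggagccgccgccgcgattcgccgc
Egr2: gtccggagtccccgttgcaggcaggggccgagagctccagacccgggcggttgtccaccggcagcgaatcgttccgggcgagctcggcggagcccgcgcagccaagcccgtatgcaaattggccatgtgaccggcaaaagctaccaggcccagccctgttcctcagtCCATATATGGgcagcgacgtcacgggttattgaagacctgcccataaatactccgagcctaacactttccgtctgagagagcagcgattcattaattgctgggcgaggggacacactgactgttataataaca
Scg2: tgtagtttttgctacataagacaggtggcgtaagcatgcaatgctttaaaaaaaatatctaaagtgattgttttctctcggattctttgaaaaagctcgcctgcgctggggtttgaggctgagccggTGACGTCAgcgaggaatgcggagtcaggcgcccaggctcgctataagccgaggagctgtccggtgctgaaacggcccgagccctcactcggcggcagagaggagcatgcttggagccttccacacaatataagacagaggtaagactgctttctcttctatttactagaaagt
The Egr1 stretch held 2 CArG boxes, at bases 105 to 96 and 83 to 74 before the start, which do not overlap, and that of Egr2 held 1, at bases 83 to 74. That of Scg2 held TGACGTCA at bases 123 to 116 before the start. Of 33469 rat promoters of the same length, 548 (1.64%) held a CArG box and 612 (1.83%) held TGACGTCA. A match is a run of letters in the window and no measure of binding. No promoter is shown for Fos or Nr4a1, which had the pattern too, so the share of such genes with a CArG box was not measured. The promoter of Xirp2 was also searched and held a match to the site of the factor MEF2, as did 1100 promoters (3.29%).

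In other genes the mean at 10 µg/ml was again closer to vehicle than to the other doses, and 1 and 50 µg/ml lay below. Vof16, named only by its symbol, stood at 1.13, 0.67 and 1.10 with vehicle, -0.67, -0.72 and -0.83 at 1 µg/ml, 1.31, 0.90 and 1.25 at 10 µg/ml and -0.78, -1.03 and -0.82 at 50 µg/ml. It was higher at 10 than at 1 µg/ml by 1.90 ± 0.13 (SE; limma adjusted p = 1.57e-05) and lower at 50 than at 10 µg/ml with a difference of -2.04 ± 0.13 (adjusted p = 8.11e-07). Against vehicle it differed by 0.19 ± 0.13 (95% interval -0.089 to 0.46), and the 10 µg/ml and vehicle arrays overlapped. Without replicate 2 the difference was 0.31 (95% interval 0.053 to 0.57; limma unadjusted p = 0.0221, adjusted p = 0.98).

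Ddit4, a stress-induced inhibitor of mTOR signalling, stood at 0.87, 0.50 and 0.44 with vehicle, -0.49, -0.64 and -0.58 at 1 µg/ml, 0.50, 0.83 and 0.58 at 10 µg/ml and -0.44, -0.58 and -0.51 at 50 µg/ml. It was higher at 10 than at 1 µg/ml by 1.21 ± 0.11 (SE; limma adjusted p = 9.98e-05) and lower at 50 than at 10 µg/ml with a difference of -1.15 ± 0.11 (adjusted p = 1.65e-05), beside 0.034 ± 0.11 (95% interval -0.20 to 0.27) against vehicle, or -0.061 without replicate 2. G0s2, an inhibitor of adipose triglyceride lipase, was higher at 10 than at 1 µg/ml by 1.05 ± 0.092 and lower at 50 than at 10 µg/ml with a difference of -0.76 ± 0.092. Socs3, a feedback inhibitor of cytokine receptors, was likewise higher at 10 than at 1 µg/ml, by 0.64 ± 0.046, and lower at 50 than at 10 µg/ml with a difference of -0.59 ± 0.046. The limma adjusted p was 9.4e-05 and 0.00013 for G0s2 and 2.29e-05 and 3.95e-06 for Socs3, and their differences from vehicle were 0.13 ± 0.092 and -0.078 ± 0.046 (SE).

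The unfolded protein and amino acid stress list had 5 members higher and 13 lower of 36 at 10 than at 1 µg/ml, beside 4.77% and 9.2% of all genes. Without replicate 2 these were 4 and 9, beside 1.93% and 4.22%. At 50 against 10 µg/ml, 15 were higher and 4 lower, beside 7.75% and 6.85% of all genes. Without replicate 2 at 10 µg/ml these were 15 and 5, beside 9.1% and 8.57%. Against vehicle 0 were higher and 5 lower at an unadjusted p under 0.05, or 0 and 1 without replicate 2, beside 3.57% and 2.79% of all genes lower, and without that array the share lay near that of all genes. Slc7a11, the cystine transporter, was lower at 10 than at 1 µg/ml with a difference of -0.62 ± 0.09 and higher at 50 than at 10 µg/ml by 0.47 ± 0.09 (SE; limma adjusted p = 0.00213 and 0.00374), beside -0.28 ± 0.09 against vehicle.

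Some genes stepped in 1 direction instead. Scg2 stood at 0.11, 0.39 and 0.50 with vehicle, 0.95, 0.96 and 0.99 at 1 µg/ml, -0.11, -0.43 and -0.19 at 10 µg/ml and -1.65, -1.67 and -1.42 at 50 µg/ml. It was lower at 10 than at 1 µg/ml with a difference of -1.21 ± 0.10 (SE; limma adjusted p = 9.34e-05) and lower again at 50 than at 10 µg/ml with a difference of -1.33 ± 0.10 (adjusted p = 3.94e-06). Vehicle lay between 1 and 10 µg/ml, so the order of the doses above 0 did not extend to vehicle. Aldh1a1, a retinaldehyde dehydrogenase, had the same order, with -0.74 ± 0.051 at 10 against 1 µg/ml, -1.33 ± 0.051 at 50 against 10 µg/ml (SE; limma adjusted p = 1.57e-05 and 3.91e-08) and -0.21 ± 0.051 at 10 µg/ml against vehicle. Fndc1 likewise had -0.58 ± 0.059, -1.18 ± 0.059 and -0.32 ± 0.059, with limma adjusted p of 0.000334 and 1.73e-07 in the comparisons of doses.

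Of the other genes leading against vehicle, Myh3 was lower at 10 than at 1 µg/ml with a difference of -1.44 ± 0.13 and Cx3cr1 with a difference of -0.61 ± 0.09 (SE; limma adjusted p = 0.000107 and 0.00238). Cpm was lower with a difference of -0.33 ± 0.048 and Myl2 higher by 0.39 ± 0.063 (SE; limma adjusted p = 0.00221 and 0.00346). These 4 calls held without replicate 2. Cacna2d2 was higher by 0.27 ± 0.069 (limma adjusted p = 0.0237), a call that was lost without replicate 2 (adjusted p = 0.082). These genes, like Scg2, Aldh1a1 and Fndc1, were picked for a small p against vehicle on the same arrays at 10 µg/ml. Their calls against 1 µg/ml are therefore no separate evidence of a difference from vehicle. At 50 against 10 µg/ml Myh3 was lower with a difference of -0.50 ± 0.13 (adjusted p = 0.019), a call lost without replicate 1 or 3 at 50 µg/ml, without replicate 3 at 10 µg/ml and after a further quantile normalization, where the difference was 0.020.

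Of the 30 macrophage and leukocyte markers, 0 were higher and 26 lower at 50 than at 10 µg/ml. The shares of all genes were 7.75% and 6.85%, and the list median was -0.73. Without replicate 2 at 10 µg/ml the counts were 0 and 25, beside 9.1% and 8.57% of all genes. At 10 against 1 µg/ml, 2 were higher and 4 lower, beside 4.77% and 9.2% of all genes. Without replicate 2 these were 1 and 1, beside 1.93% and 4.22%. In that comparison of 10 with 1 µg/ml the list lay near the shares of all genes. Lyz2 stood at 0.26, 0.034 and 0.16 with vehicle, 0.098, 0.15 and -0.096 at 1 µg/ml, -0.28, -0.034 and 0.28 at 10 µg/ml and -2.01, -2.13 and -2.36 at 50 µg/ml, and was lower at 50 than at 10 µg/ml with a difference of -2.15 ± 0.13 (SE; limma adjusted p = 5.77e-07). Csf1r was lower with a difference of -1.49 ± 0.094 (adjusted p = 8.11e-07). Every array at 10 µg/ml lay with vehicle and 1 µg/ml for Lyz2, and the arrays at 50 µg/ml lay apart.

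Endothelial markers had 6 of 14 members higher and 0 lower at 10 than at 1 µg/ml, beside 4.77% and 9.2% of all genes. Without replicate 2 these were 3 and 0, beside 1.93% and 4.22%. At 50 against 10 µg/ml, 6 were higher and 1 lower, beside 7.75% and 6.85% of all genes. Without replicate 2 at 10 µg/ml these were 9 and 1, beside 9.1% and 8.57%. Cdh5, the adhesion protein VE-cadherin, stood at -0.089, 0.11 and -0.029 with vehicle, -0.50, -0.64 and -0.83 at 1 µg/ml, 0.029, 0.18 and -0.32 at 10 µg/ml and 0.42, 0.66 and 0.62 at 50 µg/ml. It was higher at 10 than at 1 µg/ml by 0.62 ± 0.12 (SE; limma adjusted p = 0.0073, and 0.0243 without replicate 2) and higher at 50 than at 10 µg/ml by 0.60 ± 0.12 (adjusted p = 0.00399). Against vehicle it differed by -0.035 ± 0.12, and the arrays overlapped.

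**Figure D5:**
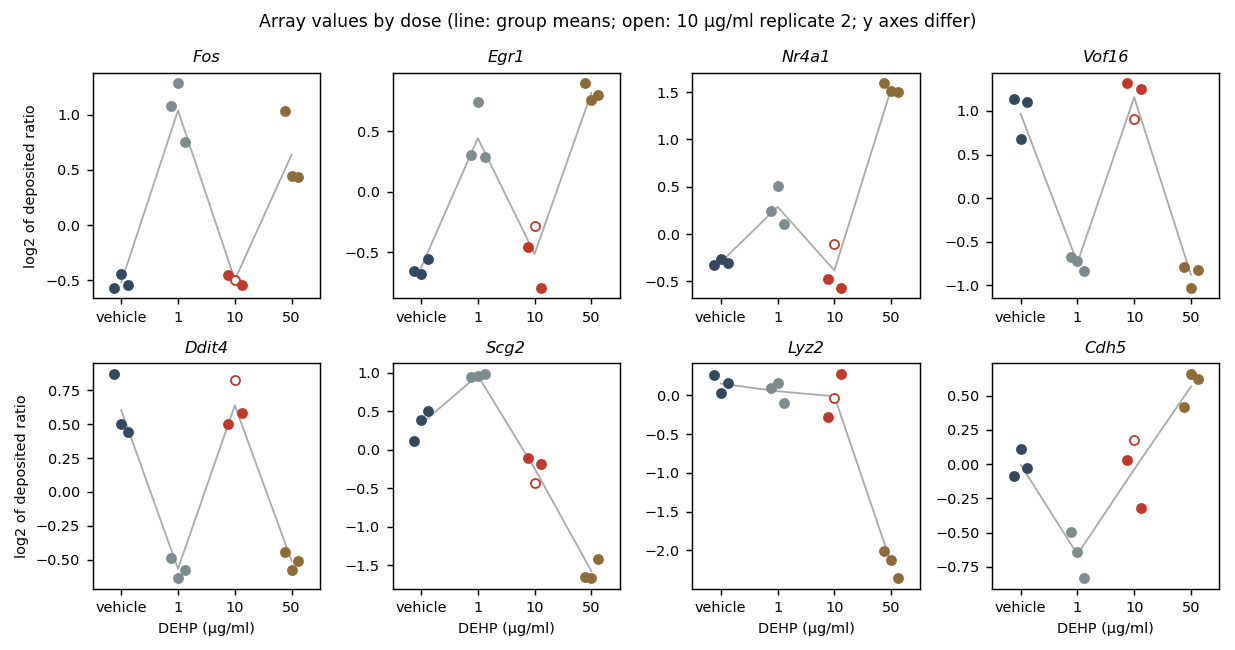
Array values (log2 of the deposited ratio, y axes differ) for 8 genes by dose of DEHP, with a line through group means and replicate 2 at 10 µg/ml open. For Fos, Egr1, Nr4a1, Vof16 and Ddit4 the mean at 10 µg/ml lies closer to vehicle than to 1 or 50 µg/ml, and for Lyz2 only the arrays at 50 µg/ml lie apart.

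Other genes were called at 50 against 10 µg/ml and not at 10 µg/ml against vehicle; a difference between these contrasts was not tested. Pla2g2a, a secreted phospholipase A2, was higher at 50 than at 10 µg/ml by 2.98 ± 0.24, Npy, neuropeptide Y, by 2.34 ± 0.12 and C6, a complement component, by 2.02 ± 0.11 (SE; limma adjusted p = 4.22e-06, 2e-07 and 4.78e-07). A2m, the protease inhibitor alpha-2-macroglobulin, was lower with a difference of -2.49 ± 0.24 (adjusted p = 2.49e-05). The differences of 10 µg/ml from vehicle were -0.10 ± 0.24 for Pla2g2a, 0.12 ± 0.12 for Npy, 0.068 ± 0.11 for C6 and -0.025 ± 0.24 for A2m (SE), and without replicate 2 they were -0.21, 0.15, 0.095 and 0.11. The metallothionein genes Mt1 and Mt2A, which bind metal ions, were higher at 50 than at 10 µg/ml by 1.71 ± 0.086 and 1.31 ± 0.10 (limma adjusted p = 1.73e-07 and 3.54e-06), beside 0.11 ± 0.086 and 0.27 ± 0.10 (SE) at 10 µg/ml against vehicle. The interval of Mt2A against vehicle, 0.053 to 0.49, did not span 0 (limma adjusted p = 0.732), and without replicate 2 the differences were 0.0013 for Mt1 and 0.19 for Mt2A.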

How the data were processed

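RMA (robust multi-array average, with no version stated here) made the expression values, per the submitters' processing notes. The authors deposited linear ratios, found from the values to be each array over the probe set's median of 12 arrays: the log2 midpoint of the 6th and 7th values was 0 within 1e-06. The direction, array over median, was taken as read. The ratios were converted to log2 here and averaged over the probe sets of a gene. Names came from the platform annotation, which gave 1 symbol to 15097 probe sets, several to 323 and none to 11922; those with several were left unnamed. The means of the 4 groups were estimated in 1 limma fit (version 3.58.1, R 4.3.3) on 12 arrays with 8 residual degrees of freedom. Its moderated tests were two-sided, and every adjusted p is limma's, by Benjamini-Hochberg over 14324 genes, called at 0.05. The script was tested on simulated data. No depth applies to arrays; their number limits the precision.

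Each direction's 6 genes with the smallest unadjusted p were named with and without replicate 2 at 10 µg/ml, since under 3 passed. Also named were the 8 highest and 8 lowest genes of that array, a panel of 34 genes (33 measured), 2 genes per list and the 6 largest of each comparison of doses, 139 in all. Other list members given as examples were chosen after their values were seen. The members and lists were chosen with earlier results of these data known. The design had assumed log2 values with levels, so the planned removal of dim probe sets was left out. Alternatives were leaving out each array, array weights, a further quantile normalization, centring, a robust prior, a replicate block, the compared groups alone, the first probe set of a gene and, added after seeing the data, array weights and quantile normalization without replicate 2.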

Additional observations from a re-analysis of the deposited data

How the results depend on the processing

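Against vehicle, the count of 0 genes past the threshold became 90 with array weights, 39 after a further quantile normalization and, chosen after seeing the data, 1 and 23 under these settings without replicate 2 at 10 µg/ml. Leaving out single arrays gave 0 to 1 genes, the 1 without vehicle replicate 1. Array weights were 3.77, 0.271 and 0.707 for replicates 1, 2 and 3 at 10 µg/ml, so the weighted mean there rests mostly on replicate 1. Over probe sets the count of 0 became 3 with array weights and 1 after quantile normalization, and stayed at 0 to 0 when arrays were left out. The count at 10 against 1 µg/ml, 2001, ran from 820 to 2694 when single arrays were left out, and was 697 in a fit of the compared groups alone and 3155 with array weights. The count at 50 against 10 µg/ml, 2091, ran from 1534 to 2531, and was 1312 in the compared groups alone, 3457 with array weights and 1265 after quantile normalization.

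Same-numbered arrays had correlations of their deviations from -0.23 to 0.43, and 5 of 12 arrays correlated best with their own number. With so few arrays, these values cannot decide whether the numbers pair the samples. With the replicate number as a block, 0 genes passed against vehicle, 2155 at 10 against 1 µg/ml and 2093 at 50 against 10 µg/ml.

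Of 139 named genes, 34 passed against vehicle in at least 1 alternative. Array weights gave 30 of them and quantile normalization 18, beside 0.628% and 0.272% of all genes. Part of the 139 were named for a small p in this same comparison. Directions were counted where a difference exceeded its standard error. The difference from vehicle turned without replicate 2 for Blvra, Coq10b, Rad1 and Tspo, which had been named for the deviation of that array. Leaving out single arrays gave -0.0034 to 0.52 for Blvra, -0.46 to 0.028 for Coq10b, -0.54 to 0.0098 for Rad1 and -0.040 to 0.26 for Tspo. It also turned with array weights for Mt1 (-0.013) and Tspo (-0.0038). At 50 against 10 µg/ml Myh3 turned to 0.020 after quantile normalization. That setting gave the same distribution to the ratios at 50 µg/ml (SD over genes 0.187 to 0.216) and at 10 µg/ml (0.0845 to 0.177). The cause was not tested. Of the named calls, 16 of 40 at 10 against 1 µg/ml and 35 of 59 at 50 against 10 µg/ml held under every alternative run for them. The planned removal of dim probe sets could not be run, because ratios keep no level; signal over background is unknown.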
